A study of Mus musculus with 8 samples.

Results

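*Xrcc2*, *Polq*, *Fancc* and *Xpa* are 4 of the 67 target mRNAs that were measured in mouse knee joints, and each encodes a DNA repair protein. They were chosen by name, with earlier results of these data known. The authors had already reported that *Xrcc2* correlated with healing of ear and cartilage in these data. All 4 lie in the second of 2 panels, which held 34 of the targets. The samples were homogenates of formalin-fixed, paraffin-embedded sections from 8 inbred strains, taken from knees in which a full-thickness cartilage defect had been made at 8 weeks of age. The authors' methods place the harvest months after this surgery, so 8 weeks is not the age at sampling. Each mRNA was caught on its own kind of bead by the QuantiGene Plex assay, without purification or amplification of RNA, and a branched DNA label then gave a fluorescence signal. The second panel held 78 numbered signals, called assay replicates here: 12 in each of LGXSM-6 and LGXSM-33, and 9 in every other strain.

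The labels class LG/J, MRL/MpJ and LGXSM-6 as healers, LGXSM-5 and LGXSM-35 as intermediate healers, and SM/J, C57BL6/J and LGXSM-33 as non-healers. All strains had the same surgery and diet, and no unoperated knees were analysed here, so values compare strains after injury and not injured with intact joints. The 4 LGXSM lines are recombinant inbred lines bred from LG/J and SM/J, and MRL/MpJ shares part of its ancestry with LG/J, so the strains are not independent lineages. The macrodissected tissue was a composite of cartilage, bone, meniscus, growth plate, joint capsule and synovium. Its cartilage and bone markers were measured with median signals from 31 (*Mia1*) and 38.5 (*Sox9*) to 3358 (*Col2a1*) for cartilage and from 326 (*Runx2*) to 24459 (*Col1a1*) for bone. In such a homogenate, fewer cells of a type and less mRNA per cell cannot be told apart.

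Repair of DNA is divided among pathways that recognize different lesions. *Xrcc2* encodes a protein of homologous recombination, which copies the sister chromatid to mend a double-strand break. *Polq* encodes DNA polymerase theta, which joins broken ends through short stretches of matching sequence and loses bases in doing so. *Fancc* encodes a subunit of the Fanconi anemia core complex, which acts on crosslinks between DNA strands, and *Xpa* encodes a scaffold protein of nucleotide excision repair, which removes bulky and ultraviolet lesions. The first of these pathways is largely used by dividing cells, while excision repair also works in resting ones.

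Signals of the 4 mRNAs were far below those of *Gapdh*. The median signal over the 78 assay replicates was 20 for *Xrcc2*, 47.5 for *Polq*, 24.2 for *Fancc* and 27.8 for *Xpa*, against 3063 for the reference gene *Gapdh* and 110.8 for the reference gene *Hprt1*. Among the 67 targets, *Polq* ranked 33rd, *Xpa* 44th, *Fancc* 45th and *Xrcc2* 49th by median signal. These ranks describe brightness, which depends on the probes, and not the abundance of one mRNA against another. Signals move in coarse steps, so a step of 1 in *Xrcc2* at its lowest signal, 5, is a large relative change. In *Xrcc2* 8 of the 78 signals were under 10, in *Polq* 1, and in *Fancc* and *Xpa* 0. The spread between beads and the background level of each signal are not in the files, so no interval was set on a single signal.

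Before normalization, *Xrcc2* was brighter by median in the healer and intermediate strains than in the non-healers. Its signals in the healers ran from 17 through a median of 20 to 31 in LG/J. In MRL/MpJ they ran from 18 through 33.5 to 61.5, and in LGXSM-6 from 19.5 through 42.8 to 95. The lowest healer signal was thus above the highest of SM/J, which was 14. In SM/J the signals ran from 5 through 10 to 14, in C57BL6/J from 8 through 11 to 18, and in LGXSM-33 from 7 through 11.5 to 30.5. The intermediate LGXSM-5 gave 12, 27 and 35 as lowest, median and highest signal, and LGXSM-35 gave 13.5, 32 and 43. These intermediate strains overlapped with both other classes.

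*Polq* had another order. Its lowest, median and highest signals were 52.5, 110 and 149 in LGXSM-35 and 38, 99 and 112.5 in LGXSM-5, the brightest strains by median. LGXSM-6 gave 29.5, 71.8 and 163, MRL/MpJ gave 44, 60 and 110.5, and LGXSM-33 gave 29, 43.2 and 170.5. LG/J gave 30.5, 42 and 67. At the dim end were C57BL6/J with 24, 28 and 57, and SM/J with 8, 24.5 and 27. In every strain except C57BL6/J, all signals lay above all of SM/J.

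*Fancc* and *Xpa* varied less in signal. The strain medians of *Fancc* ran from 15 in SM/J through 18.5 in LGXSM-33, 23 in both LG/J and C57BL6/J, 25 in MRL/MpJ, 27 in LGXSM-5 and 30 in LGXSM-35 to 34.5 in LGXSM-6. Those of *Xpa* ran from 20 in both SM/J and C57BL6/J through 24 in both LG/J and LGXSM-33, 33 in LGXSM-5, 34 in MRL/MpJ and 37 in LGXSM-35 to 39.5 in LGXSM-6. In both mRNAs SM/J was at or next to the bottom and LGXSM-6 at the top, which is also their place for *Hprt1*, with median signals of 69 in SM/J, the lowest, and 227.8 in LGXSM-6, the highest.

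**Figure D1:**
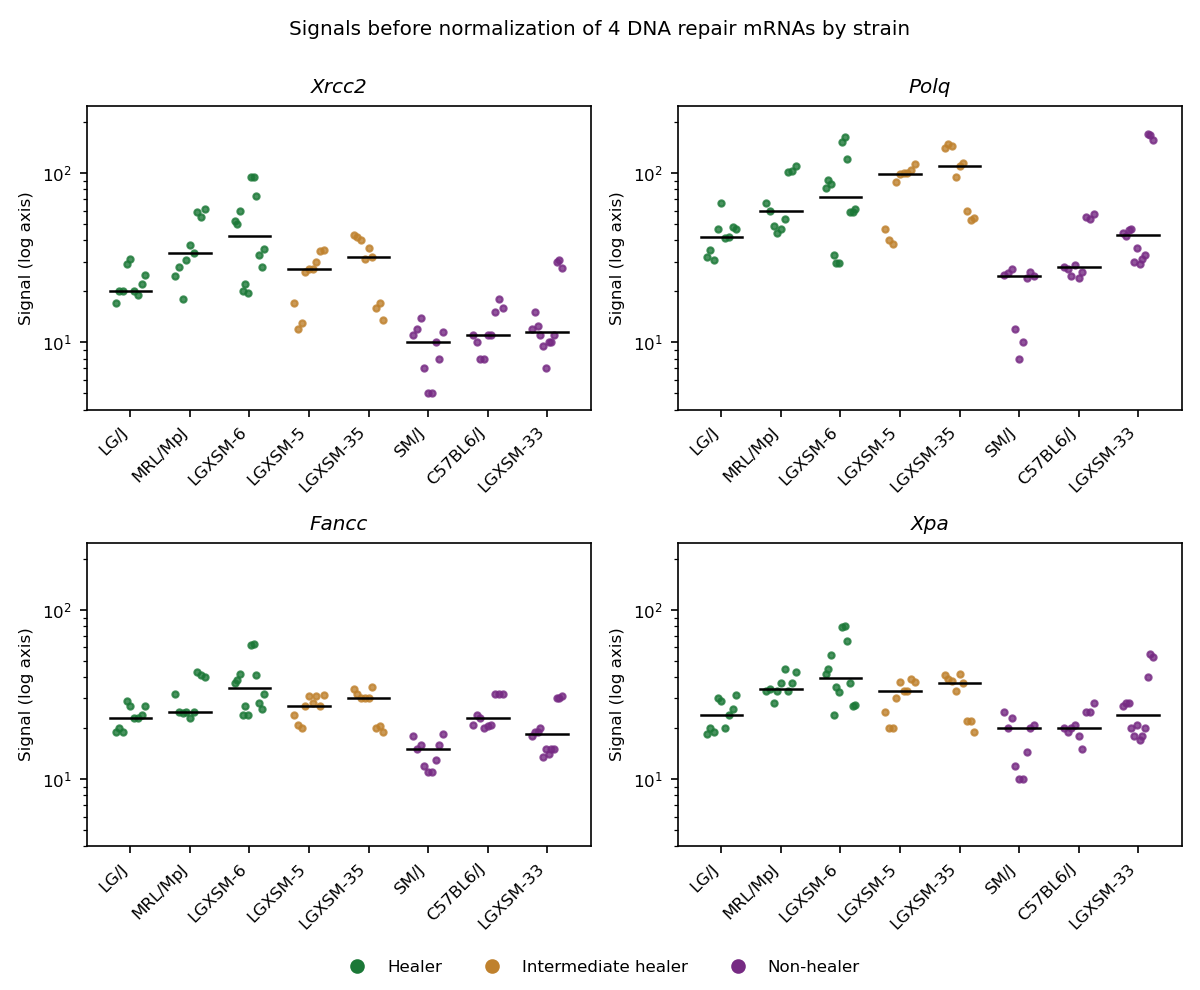
Signals before normalization (log axis, no unit) of the 4 mRNAs in the 8 strains; each point is an assay replicate, the bar is the strain's median, and colours give the healing class. Points often fall in tight runs of 3 within a strain, as in *Polq* of LGXSM-33, whose 3 highest signals stand apart and reach 170.5.

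Much of this variation was shared with the reference genes. Over the 78 assay replicates, Pearson's r between log10 signals and those of *Hprt1* was 0.916 for *Xrcc2*, 0.898 for *Polq*, 0.912 for *Fancc* and 0.926 for *Xpa*, a description over points that share wells and strains. The normalized values, as deposited, are what remains of each log10 signal after a regression on *Gapdh* and *Hprt1*. In regressions recomputed here, the 2 reference genes took up 84.9% of the variance of *Xrcc2*, 80.9% of *Polq*, 89.4% of *Fancc* and 86.6% of *Xpa*. All strain values below are these residuals on the log10 scale unless a signal is named, so 0 is the level that the reference genes predict.

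After normalization, strains differed in *Xrcc2* and *Polq* and not detectably in *Fancc* and *Xpa*. By limma's F test over assay replicates, the adjusted P was 9.65e-10 for *Xrcc2* and 2.11e-10 for *Polq*, against 0.631 for *Fancc* and 0.392 for *Xpa*. Of the 67 targets 82.1% passed this test, so a pass was the usual result, and *Fancc* and *Xpa* belonged to the minority of 12 that did not. The share of variance between strains, H2, was 53.6% for *Xrcc2* (range 30.7% to 64.5% over fits without 1 strain) and 56.1% for *Polq* (47.4% to 65.7%), which ranked 10th and 8th of the 67. It was −2.0% for *Fancc* (−3.66% to 1.2%) and 1.05% for *Xpa* (−2.88% to 4.55%), ranks 66 and 64, against a median of 29.6% over all targets. The lowest value for *Xrcc2* was the one without C57BL6/J.

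These tests count every assay replicate as independent, while the methods describe 3 to 4 mice per strain measured in biological and technical replicates. Which signals come from 1 mouse is not given. Consecutive signal numbers were alike: within runs of 3 (1 to 3, 4 to 6 and so on) the SD of normalized *Polq* was 0.0302, and between the means of such runs within a strain it was 0.0945. For *Xrcc2* these SDs were 0.0494 and 0.0757, for *Fancc* 0.0363 and 0.0460, and for *Xpa* 0.0467 and 0.0590. With the 26 means of 3 as the unit, a setting chosen after seeing the data, *Xrcc2* and *Polq* still passed limma's F test over the 34 mRNAs of the panel, with adjusted P of 0.0100 and 0.0113, and 8 of those 34 passed in all. The adjusted P was 0.968 for *Fancc* and 0.967 for *Xpa*.

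The normalized level of *Xrcc2* was at its top in MRL/MpJ, with 0.107 ± 0.0637 (SD over n = 9 assay replicates), and in LG/J, with 0.0987 ± 0.0469 (SD, n = 9). LGXSM-6 followed with 0.0385 ± 0.0867 (SD, n = 12), so that the 3 healers held the first 3 places. Next came LGXSM-35 with 0.00930 ± 0.0369 (SD, n = 9), SM/J with 0.00527 ± 0.134 (SD, n = 9) and LGXSM-5 with −0.00101 ± 0.0543 (SD, n = 9), which did not differ from each other or from LGXSM-6 beyond their spread. The non-healers LGXSM-33, at −0.0549 ± 0.0830 (SD, n = 12), and C57BL6/J, at −0.179 ± 0.0790 (SD, n = 9), were lowest. All 9 assay replicates of LG/J and of MRL/MpJ were above 0 and all 9 of C57BL6/J below it. The highest value of C57BL6/J was −0.0333 and the lowest of MRL/MpJ 0.0304, so that these strains did not overlap.

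Between strain pairs, *Xrcc2* differed by limma in 15 of 28, and *Polq* in 15 of 28, against 29.5% of all 1876 pairs and mRNAs. In *Xrcc2*, C57BL6/J took part in 7 of the 15 and was the lower strain in each. MRL/MpJ was 1.93-fold above C57BL6/J (log10 difference 0.286, SE 0.0368, limma adjusted P = 2.21e-09). As a ratio to the reference genes this pair was 1.46-fold apart (limma adjusted P = 0.0179), and without normalization 3.09-fold (adjusted P = 2.91e-06). The related healers MRL/MpJ and LG/J differed by 0.00824 (SE 0.0368, adjusted P = 0.893). Of the 7 pairs of neighbours in the order, LGXSM-33 against C57BL6/J was the 1 that passed (0.124, SE 0.0344, adjusted P = 0.00357). As a ratio to the reference genes its direction turned, with C57BL6/J 1.5-fold above LGXSM-33 (limma adjusted P = 0.00665), and without normalization the pair did not pass (adjusted P = 0.456). Between the parents of the cross, LG/J was 1.24-fold above SM/J (0.0934, SE 0.0368, adjusted P = 0.0457), and between the lines with opposite labels LGXSM-6 was 1.24-fold above LGXSM-33 (0.0935, SE 0.0319, adjusted P = 0.0199). As a ratio to the reference genes these pairs differed by 1.46-fold (limma adjusted P = 0.0168) and 1.95-fold (adjusted P = 2.16e-06), and without normalization by 2.53-fold (adjusted P = 8.39e-05) and 3.04-fold (adjusted P = 2.01e-07).

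With means of 3 consecutive signals, 5.78% of the 952 pairs and mRNAs of the panel passed by limma, and 3 of the 28 pairs of *Xrcc2* did. These were the 3 healers against C57BL6/J, for MRL/MpJ with an adjusted P of 0.00287. LG/J against SM/J and LGXSM-6 against LGXSM-33 did not pass (limma adjusted P = 0.497 and 0.406). In *Polq*, the 3 pairs that passed were LGXSM-35 against LGXSM-6, LGXSM-5 against LGXSM-6 and LGXSM-35 against SM/J (limma adjusted P = 0.00904, 0.0252 and 0.0354).

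**Figure D2:**
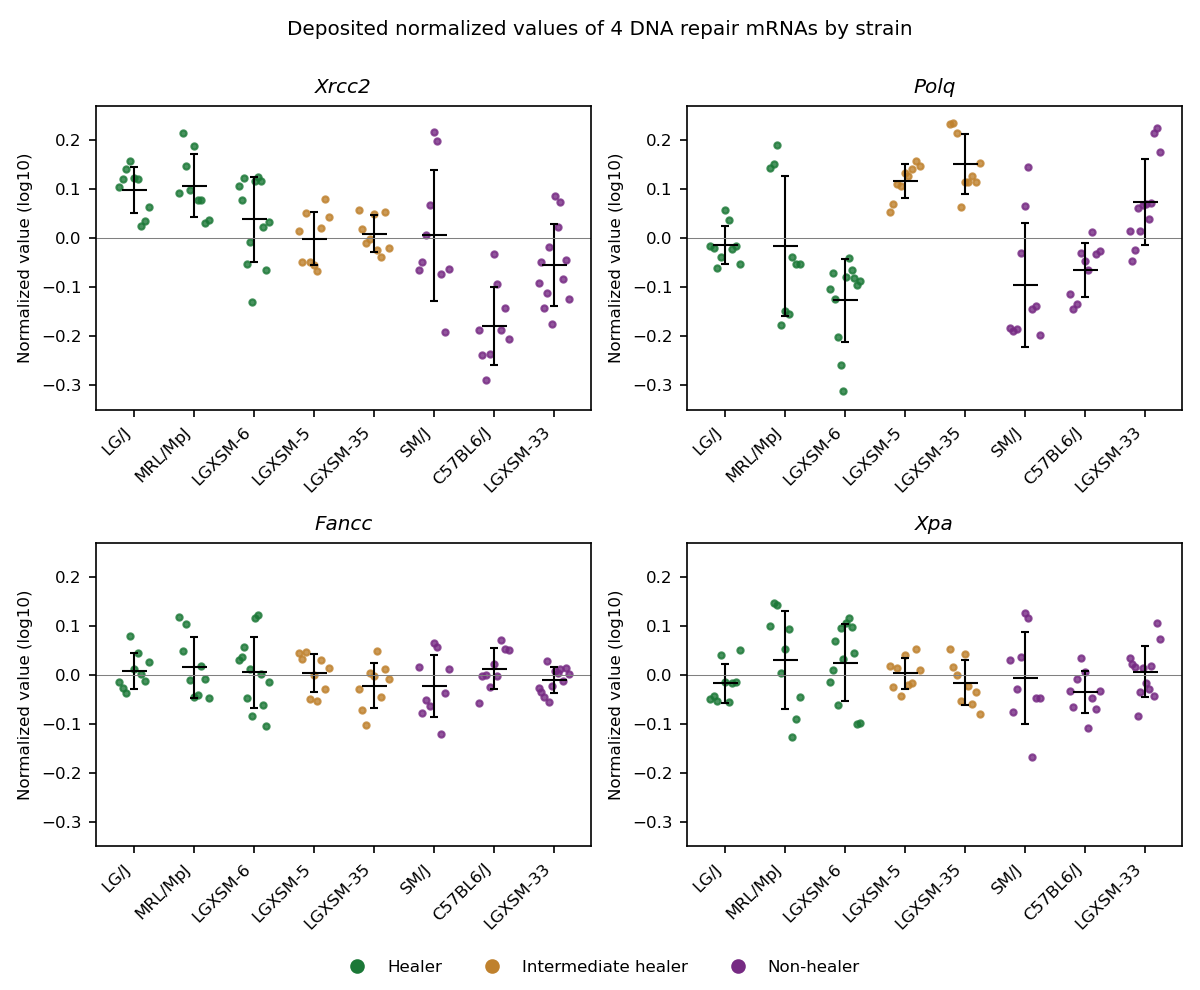
Deposited normalized values (log10, residual after regression on *Gapdh* and *Hprt1*) of the 4 mRNAs by strain; points are assay replicates, bars the mean ± SD, and colours the healing class. *Xrcc2* steps down from the healers to C57BL6/J at −0.179, *Polq* peaks in LGXSM-5 and LGXSM-35 and is lowest in LGXSM-6 at −0.127, and the strain means of *Fancc* and *Xpa* stay near 0.

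For *Xrcc2*, SM/J stood apart in its spread. Signals 4 to 6 of this strain had *Gapdh* between 346 and 497 and *Hprt1* between 10 and 22, while its other 6 signals lay between 3091 and 4576.5 for *Gapdh* and between 64 and 81 for *Hprt1*. No other strain went under 1115.5 for *Gapdh* or 43 for *Hprt1*. In these 3 assay replicates *Xrcc2* had signals of only 5 to 7, yet normalized values of 0.0676 to 0.216, and the mean of the 3, 0.161, was the highest of the 26 means of 3. In the other 6 of SM/J the normalized values ran from −0.191 to 0.00635. Without Signals 4 to 6, a setting chosen after seeing the data, the mean of SM/J was −0.0725 ± 0.0648 (SD, n = 6), which put it 7th of 8, between LGXSM-33 and C57BL6/J. LG/J was then 1.48-fold above SM/J (limma adjusted P = 0.000116). The regression on the reference genes was not refitted, so Signals 4 to 6 still entered the residuals of every strain.

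The same signals moved the other members. For *Polq* the mean of SM/J was −0.0956 with and −0.173 without them, for *Fancc* −0.0227 and −0.0435, and for *Xpa* −0.00656 and −0.0563. Without them SM/J had the lowest mean of the 8 strains in *Polq*, *Fancc* and *Xpa*. H2 was then 63.5% for *Xrcc2*, 66.0% for *Polq*, 2.49% for *Fancc* and 9.10% for *Xpa*, and the limma F test kept each on the same side of the threshold. In *Xpa*, 2 of 28 pairs then passed.

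**Figure D3:**
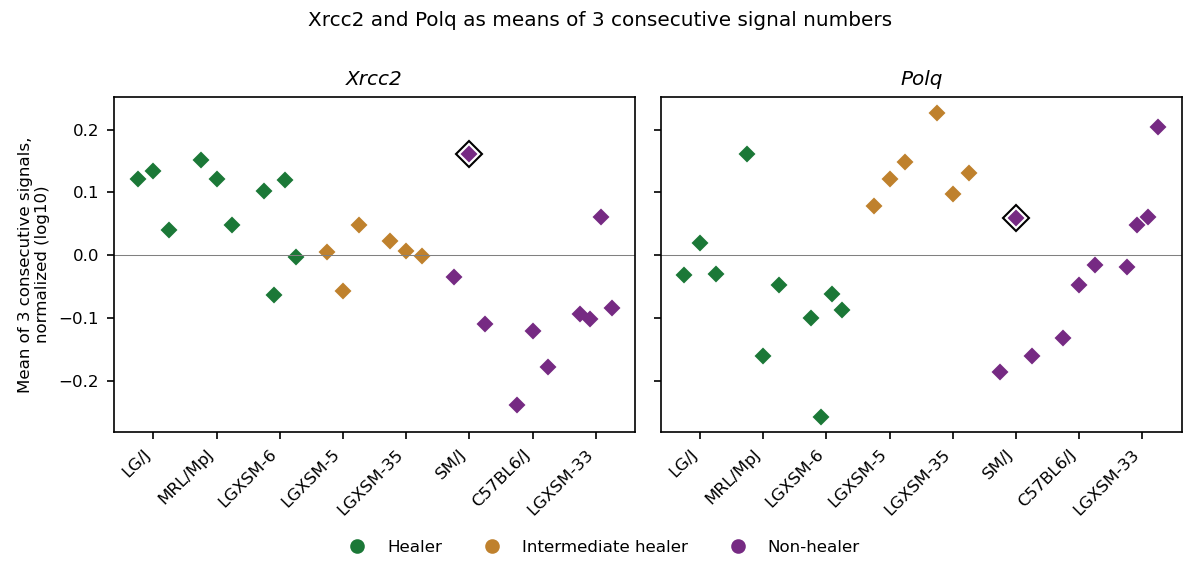
Normalized *Xrcc2* and *Polq* (log10) as means of 3 consecutive signal numbers in each strain; each diamond is 1 such mean, colours give the healing class, and the framed diamond is the mean of Signals 4 to 6 of SM/J, where the reference genes were dimmest. For *Xrcc2* the framed value, 0.161, lies above every other diamond, and for *Polq* MRL/MpJ spans 0.161 to −0.161.

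The level of *Polq* was set apart by the recombinant lines. Means were 0.152 ± 0.0614 (SD, n = 9) in LGXSM-35, 0.116 ± 0.0346 (SD, n = 9) in LGXSM-5 and 0.0733 ± 0.0883 (SD, n = 12) in LGXSM-33. LG/J, at −0.0148 ± 0.0389 (SD, n = 9), and MRL/MpJ, at −0.0160 ± 0.142 (SD, n = 9), held the middle and were alike (difference 0.00115, SE 0.0404, limma adjusted P = 0.983). C57BL6/J with −0.0650 ± 0.0547 (SD, n = 9), SM/J with −0.0956 ± 0.126 (SD, n = 9) and LGXSM-6 with −0.127 ± 0.0848 (SD, n = 12) were lowest. All 12 values of LGXSM-6 were below 0 and all 9 of LGXSM-5 and of LGXSM-35 above it. No pair of neighbours in this order differed by limma, the closest being LGXSM-33 against LG/J (adjusted P = 0.0680). LGXSM-35 was 1.90-fold above LGXSM-6 (log10 difference 0.279, SE 0.0377, adjusted P = 9.30e-09). Without normalization this pair was 1.37-fold apart and did not pass (adjusted P = 0.217), and LGXSM-5 was 1.08-fold above LGXSM-6 (adjusted P = 0.773).

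Although LGXSM-5, LGXSM-33 and LGXSM-35 descend from LG/J and SM/J alone, their *Polq* means were above those of both. LGXSM-35 was 1.47-fold above LG/J (limma adjusted P = 0.000787) and 1.77-fold above SM/J (adjusted P = 1.01e-06). LGXSM-5 was 1.35-fold above LG/J (adjusted P = 0.00954) and 1.63-fold above SM/J (adjusted P = 2.41e-05). For these 2 lines both comparisons passed. LGXSM-33 passed against SM/J (adjusted P = 0.000299) but not against LG/J, and as a ratio to the reference genes it was 1.24-fold above SM/J and did not pass (adjusted P = 0.154). Without Signals 4 to 6 of SM/J, LGXSM-33 passed against both parents (limma adjusted P = 0.0382 against LG/J and 3.62e-07 against SM/J). LGXSM-6 had a mean below both parents and passed against LG/J (adjusted P = 0.0187) but not against SM/J (adjusted P = 0.574). Without those signals it was 1.11-fold above SM/J and did not pass (adjusted P = 0.371). Over all targets, a line was outside both parents, with both pairs past the threshold, in 38 of 268 combinations of line and mRNA, or 14.2%. *Polq* accounted for 2 of its 4 lines, and *Xrcc2*, *Fancc* and *Xpa* for 0 of 12. With means of 3 consecutive signals, LGXSM-35 and LGXSM-5 did not pass against LG/J (adjusted P = 0.206 and 0.40). LGXSM-5 did not pass against SM/J either (limma adjusted P = 0.0837).

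Of the 4 mRNAs *Polq* varied most within strains, with a pooled SD of 0.0870. In MRL/MpJ its 3 means of consecutive signals were 0.161, −0.161 and −0.0483, and in LGXSM-33 its 4 were −0.0194, 0.0474, 0.0605 and 0.205. The 3 of LG/J, at −0.0324, 0.0186 and −0.0306, were close. In LGXSM-6 they were −0.10, −0.257, −0.0614 and −0.0875, each below all 3 of LGXSM-5, which were 0.0781, 0.122 and 0.148.

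Levels of *Fancc* and *Xpa* were flat across strains. The mean of *Fancc* ran from −0.0227 ± 0.0632 in SM/J to 0.0151 ± 0.0628 in MRL/MpJ (SD, n = 9 each), a 1.09-fold span and the narrowest of the 67 targets, whose median span was 1.46-fold. The mean of *Xpa* ran from −0.0359 ± 0.0428 in C57BL6/J to 0.0306 ± 0.10 in MRL/MpJ (SD, n = 9 each), a 1.17-fold span that ranked 65th. The spans of *Xrcc2* and *Polq*, 1.93-fold and 1.90-fold, ranked 19th and 20th. In *Fancc* and *Xpa*, 0 of 28 pairs passed by limma after adjustment, and at an unadjusted P under 0.05 there were 0 and 2. Assay replicates of the highest and lowest strains overlapped in both. The permutation test of F gave P = 0.581 for *Fancc* and 0.370 for *Xpa*.

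Whether the healing classes differed was tested with the strain as the unit. *Xrcc2* averaged 0.0814 ± 0.0374 in healers (SD, n = 3 strains), 0.00414 in the 2 intermediate strains and −0.0763 ± 0.0941 in non-healers (SD, n = 3). Healers were 1.44-fold above non-healers (log10 difference 0.158, SE 0.0488, 95% interval 1.11-fold to 1.86-fold), with a limma P of 0.0120 before and 0.589 after adjustment over the 67 targets. The log10 difference was 0.206 as a ratio to the reference genes (limma adjusted P = 0.142) and 0.459 without normalization (adjusted P = 0.0841). With a pseudocount of 10 added to the signals the difference was smaller, at 0.0940 (limma adjusted P = 0.486). At the adjusted threshold 0 of 67 targets passed (0%), and 5.97% passed without adjustment. All 3 healer means were above all 3 non-healer means, as in 10.4% of the targets. The gap was between LGXSM-6 at 0.0385 and SM/J at 0.00527, and without Signals 4 to 6 of SM/J between LGXSM-6 and LGXSM-33 at −0.0549.

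Over the 3 ordered classes (non-healer 0, intermediate 1, healer 2), Pearson's r of *Xrcc2* was 0.803. The two-sided exact permutation test over the 560 assignments of classes to strains gave P = 0.00714, or 0.399 after adjustment. Spearman's rho was 0.882, with an exact permutation P of 0.0107, or 0.479 after adjustment. By this exact permutation test 0% of the 67 targets passed after adjustment and 7.46% before it. With C57BL6/J and MRL/MpJ left out, whose levels lay farthest from the median, r was 0.825 (exact permutation P = 0.0444), while the difference of healers from non-healers fell to 0.0935 on the log10 scale and no longer passed by limma before adjustment (P = 0.0853, adjusted P = 0.792). Leaving out each strain in turn, r stayed between 0.754 and 0.898, with an unadjusted exact permutation P under 0.05 in all 8 fits. The permutation test treats the strains as exchangeable, although they are related. No batch is given by which the trend could be recalculated.

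With the residuals of all 8 strains, none of the other members passed these tests before or after adjustment. *Polq* was highest in the intermediate strains, with a mean of 0.134, against −0.0524 in healers and −0.0291 in non-healers. Its healers were 0.948-fold the non-healers (95% interval 0.717 to 1.25, limma adjusted P = 0.919), and the order of classes gave r = −0.107 and rho = −0.0630, with P of 0.789 and 0.957 by exact permutation. For *Fancc* the ratio of healers to non-healers was 1.04 (0.897 to 1.2, limma adjusted P = 0.894), and r of 0.506 and rho of 0.504 had P of 0.207 and 0.218 by exact permutation. Leaving out each strain in turn, r of *Fancc* ran from 0.348 (without SM/J) to 0.798 (without C57BL6/J), and the latter had an unadjusted exact permutation P of 0.0429. Without normalization r of *Fancc* was 0.717 over all 8 strains, with an exact permutation P of 0.0393 before and 0.219 after adjustment. As a ratio to the reference genes its sign turned, with r = −0.265. For *Xpa* healers were 1.06-fold the non-healers (0.904 to 1.24, limma adjusted P = 0.894), and r of 0.518 and rho of 0.378 had P of 0.20 and 0.379 by exact permutation. Its r ran from 0.348 (without C57BL6/J) to 0.747 (without LG/J), and as a ratio to the reference genes it was −0.401 over all 8 strains. Whether *Xrcc2* differed from the other members in its relation to the classes was not tested.

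**Figure D4:**
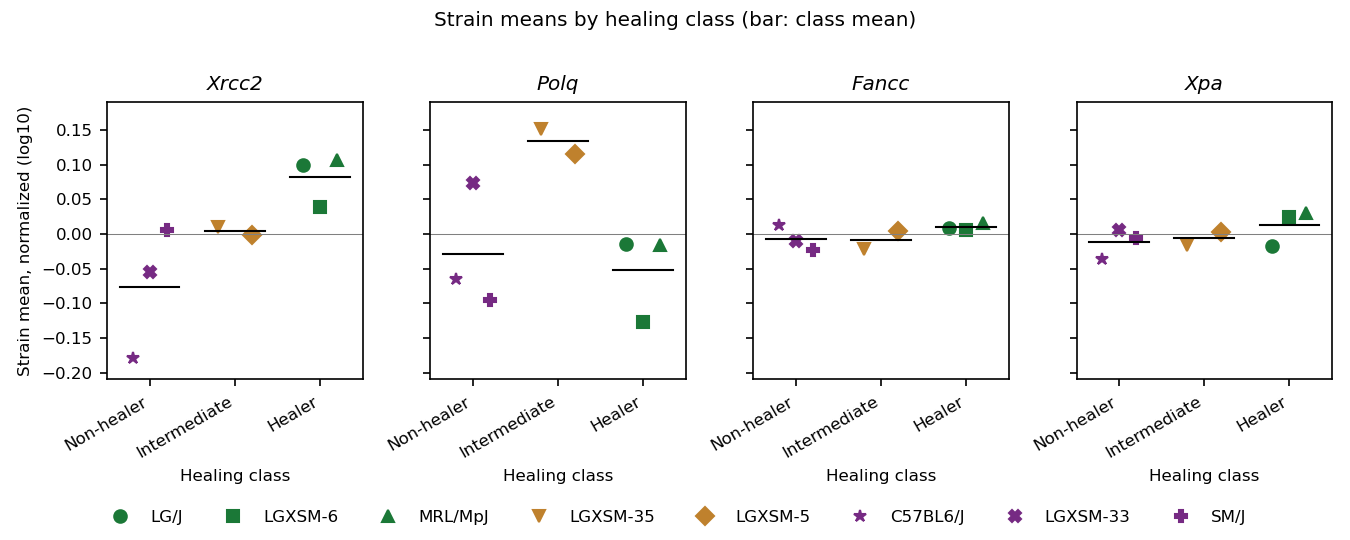
Strain means of the normalized values (log10) of the 4 mRNAs by healing class; each marker shape is 1 strain and the bar is the mean of the class. In *Xrcc2* the 3 healers lie between 0.0385 and 0.107 and the 3 non-healers between −0.179 and 0.00527, and in *Polq* both intermediate strains lie above the rest.

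How the reference genes are used changed the order of strains. C57BL6/J had the dimmest *Gapdh* by median, at 1255, and the regression slope of log10 *Xrcc2* was −0.166 on *Gapdh* and 0.938 on *Hprt1*. As a ratio to the mean of the reference genes, C57BL6/J was not the lowest but 6th of 8 for *Xrcc2*, and LGXSM-33 was the lowest. MRL/MpJ, LG/J and LGXSM-6 kept the first 3 places with the ratio, and without normalization LG/J was 5th, below both intermediate strains. The 3 healers lay above the 3 non-healers with the ratio, as for 4 of the 67 targets, and without normalization, as for 13 of the 67. For *Polq*, LGXSM-35 and LGXSM-5 kept the first 2 places with the ratio. LGXSM-33 then lay between the parents, LGXSM-5 no longer passed against LG/J (limma adjusted P = 0.0786), and LGXSM-6 did not pass against it either (adjusted P = 0.0837). Without normalization the place of LGXSM-6 turned round, 1.64-fold above LG/J (limma adjusted P = 0.0488) and 3.73-fold above SM/J (adjusted P = 4.41e-07).

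*Fancc* and *Xpa* were flat only as residuals. As a ratio to the reference genes, both passed limma's F test (adjusted P = 8.41e-05 and 0.0454), with C57BL6/J highest for *Fancc* and SM/J for *Xpa* and LGXSM-33 lowest for both. Without normalization they passed as well (adjusted P = 1.12e-09 and 8.12e-08). Adjustment over all targets raised the limma P of *Xpa* under the ratio only from 0.042 to 0.0454, as happens when most targets pass. The share of targets that passed under the ratio or without normalization was not counted. These passes therefore do not set *Fancc* and *Xpa* apart from other targets. Slopes on *Gapdh* and *Hprt1* were −0.228 and 0.595 for *Fancc* and 0.0955 and 0.456 for *Xpa*. A ratio to the mean of the reference genes amounts to slopes that add up to 1.

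**Figure D5:**
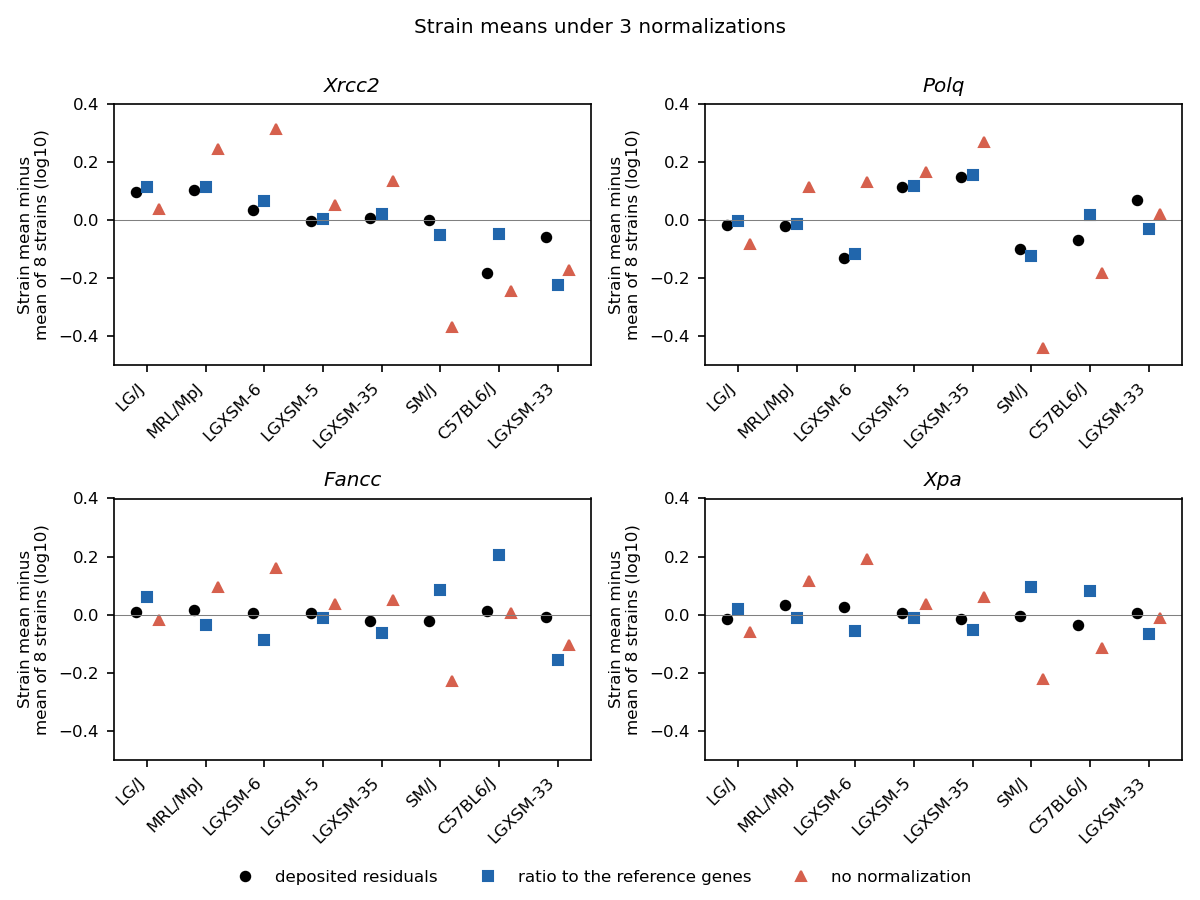
Strain means of the 4 mRNAs under 3 normalizations, each minus the mean of the 8 strains (log10): deposited residuals, log10 ratio to the reference genes, and log10 signals without normalization. For *Xrcc2* the residuals place C57BL6/J lowest at −0.182 and the ratio places LGXSM-33 lowest at −0.223, and for *Fancc* the ratio places C57BL6/J 0.205 above the mean where its residual is 0.0138.

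Likeness among the members across strains depended on the normalization. Over the 8 strain means of the residuals, r was 0.00472 between *Xrcc2* and *Polq*, 0.600 between *Xrcc2* and *Xpa*, 0.0702 between *Xrcc2* and *Fancc*, −0.309 between *Polq* and *Fancc*, −0.123 between *Polq* and *Xpa* and 0.184 between *Fancc* and *Xpa*. As ratios to the reference genes, r was 0.922 between *Fancc* and *Xpa*, 0.0421 between *Xrcc2* and *Xpa* and between −0.263 and 0.190 for the other pairs. Without normalization all 6 lay between 0.780 and 0.941. These values describe 8 points from the same wells.

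Of the other mRNAs in the panels that act in DNA synthesis and the DNA damage response, 3 of 4 passed limma's F test, against 82.1% of all targets. *Pcna*, the sliding clamp of DNA polymerases in replication and repair, had a median signal of 352 and an H2 of 34.1% (limma adjusted P = 2.42e-05). It was highest in LG/J at 0.129 ± 0.0686 and lowest in C57BL6/J at −0.0881 ± 0.0314 (SD, n = 9 each), and these did not overlap. Like *Xrcc2*, it had the 3 healers in the first 3 places. Its trend over classes gave r = 0.786 and rho = 0.819, with P of 0.0143 and 0.0286 by exact permutation and an adjusted P of 0.399 for r. *Trp53*, encoding p53, had an H2 of 36.7% (limma adjusted P = 2.39e-05) and was lowest in LG/J, at −0.0757. *Cdkn2a*, encoding the cell cycle inhibitors p16 and p19ARF, passed as well (adjusted P = 0.0252), but all of its 78 signals were under 10. *Cdkn1a*, encoding the p53 target p21, did not pass (H2 −1.35%, adjusted P = 0.516). Of the 4, 0 passed the comparison of healers with non-healers after adjustment.

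By likeness over the 8 strain means, the mRNAs nearest to *Xrcc2* among all targets were *Pcna* (r = 0.846), *Axin2*, a target and inhibitor of Wnt signalling (0.839), and the chemokine *Cxcl12* (0.738). Nearest to *Polq* were *Becn1*, an autophagy gene (0.853), *Il4* (0.532) and the autophagy kinase *Ulk1* (0.498). Over the 78 assay replicates, r was 0.740 between *Polq* and *Becn1* and 0.461 between *Xrcc2* and *Pcna*. Nearest to *Fancc* were *Il6* (0.638), *Mmp9* (0.609) and *Adamts4* (0.474), and nearest to *Xpa* were *Mmp3* (0.838), *Stat3* (0.718) and *Col6a6* (0.681). Some of these are dim, with median signals of 9 for *Il6* and 11 for *Il4* and *Col6a6*, and the nearest of 66 others is high by selection.

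Across the 8 strain means, *Polq* ran opposite to the cartilage and bone markers, as a description without a test. Its r was −0.746 with the mean of the 3 bone markers (*Bglap1*, *Col1a1*, *Runx2*), −0.785 with that of the 2 hypertrophic cartilage markers (*Col10a1*, *Ihh*) and −0.557 with that of the 5 cartilage markers (*Col2a1*, *Acan*, *Comp*, *Sox9*, *Mia1*). The bone markers were highest in LGXSM-6 (mean 0.105), where *Polq* was lowest, and lowest in LGXSM-35 (−0.131), where *Polq* was highest. These are residuals, and without normalization LGXSM-6 was 3rd of 8 for *Polq*. With *Xrcc2*, r was −0.00225 for bone, 0.0796 for hypertrophic cartilage and 0.278 for cartilage. The osteoclast and myeloid markers *Mmp9* and *Ccl3* had r = −0.630 with *Xrcc2*, −0.753 with *Xpa*, −0.132 with *Polq* and −0.0212 with *Fancc*, and the fat markers *Adipoq* and *Lep* had r between −0.355 and 0.320 with the 4 members (0.133 with *Polq*). The part of tissue composition in these levels was not tested.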

How the data were processed

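QuantiGene Plex signals of knee joint homogenates were measured in 8 strains. The authors deposited log10 signals and normalized log10 values of each assay replicate, the latter being residuals of the targets after a multiple regression on the panel's reference genes. Recomputed residuals differed from the deposited ones by at most 0.00663 for the 4 mRNAs. The files of strain averages and of the authors' fold changes were not used. The authors' methods state a fixed number of bead events per bead region and a background subtraction, and the files do not say whether the deposited signals precede that step.

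The members and lists were chosen with earlier results of these data known. Named are the 4 members, the pathway list, the reference and marker genes, and the 3 targets nearest to each member. All 67 targets were fitted with limma 3.58.1 in R 4.3.3: strain as a factor over assay replicates, by panel, with F tests and 28 contrasts, and healing class over 8 strain means. P values were adjusted by Benjamini-Hochberg over 67 targets, or 1876 pairs and mRNAs, at 0.05. Trends used exact permutation. H2 came from one-way variance components. Python 3.11.15, numpy 2.4.6 and pandas 2.3.3 were used. Steps were tested on simulated data. All 4 symbols matched RefSeq, which was used for names alone.

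Alternatives were recomputed residuals, ratio to the reference genes, no normalization, a pseudocount of 10, *Gapdh* and *Hprt1* alone, a filter on a median signal of 10 that kept 59 targets, leaving out strains or signals, the 6 strains of the cross, medians, and other tests.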

Additional observations from a re-analysis of the deposited data

How the results depend on the processing

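Leaving out Signal 9 of LGXSM-35, which lies in the first panel, could not move the 4 mRNAs, and residuals on *Gapdh* and *Hprt1* alone repeat the recomputed residuals in their panel, so neither tests stability. With the ratio to the reference genes, *Fancc* gave a limma adjusted P of 8.41e-05, an H2 of 30.7% and 8 pairs, and *Xpa* gave 0.0454, 10.8% and 3 pairs. Under the ratio, differences of healers from non-healers (log10) were 0.00110 for *Polq*, −0.0649 for *Fancc* and −0.0539 for *Xpa*, r over classes was 0.00515, −0.265 and −0.401, and H2 of *Polq* was 37.2%. Without normalization, *Fancc* gave an adjusted P of 1.12e-09, 54.4% and 14 pairs, *Xpa* 8.12e-08, 45.4% and 14 pairs, and *Polq* a difference of 0.254 and r = 0.515. Without Signals 4 to 6 of SM/J, the difference of *Polq* was 0.00261 and its r 0.0105, and H2 was 2.49% for *Fancc* and 9.10% for *Xpa*, with 2 pairs for *Xpa*. With means of 3 consecutive signals, *Xrcc2* and *Polq* had 3 pairs each, and H2 was −25.9% for *Fancc* and −20.2% for *Xpa*. These last 2 settings were chosen after seeing the data. The share of all pairs and mRNAs that passed is given above for the deposited residuals and the means of 3 only. Pair counts and F tests in the other settings therefore have no such share beside them. In the 6 strains of the cross, *Xrcc2* had an H2 of 23.3% and 4 of 15 pairs, since C57BL6/J and MRL/MpJ are left out. With Bonferroni adjustment *Xrcc2* had 9 of 28 pairs. Leaving out 1 strain, the pairs of *Xrcc2* numbered 8 (without C57BL6/J) to 13 (without SM/J or LGXSM-6) of 21, the difference of *Polq* ran from −0.0566 (without SM/J) to 0.0279 (without LGXSM-33), and its r from −0.336 to 0.154. Except where stated, the cause of a change was not tested.

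No paired analysis was possible because the replicate numbers of strains within a class carry no pairing. The exact test of 3 healer against 3 non-healer strains cannot give a P under 0.10, which it gave for *Xrcc2*. P values over assay replicates treat repeats of a mouse as independent. In Signals 4 to 6 of SM/J both the members and the reference genes were dim, which limits the normalized values there.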
